A study of Mus musculus with 72 samples.

Results

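The genes of iron uptake, transport and storage described here were chosen by name (Tfrc, Steap3, Slc11a2, Slc25a37, Abcb10, Fth1, Slc40a1, Slc11a1 and Ireb2), 9 of the 31131 genes on the array, and 8 of them were detected and tested among 16098 detected genes in mouse blood drawn 1 to 7 days after exposure to neutrons or x-rays. Blood came from male C57BL/6 mice, young adults, that were sham-irradiated or given 0.25 or 1 Gy of neutrons or 1 or 4 Gy of x-rays. The neutron beam, built to mimic the spectrum of an improvised nuclear device, also carries some gamma rays. By the paper's methods its dose rate was lower than that of the x-rays. Sham-irradiated mice were held on the wheel of the neutron source while the beam was off. The 72 arrays, each of 1 mouse, held 5 controls, 6 mice of each neutron dose, 6 of the lower and 5 of the higher x-ray dose at day 1. At day 7 there were 6 controls, 5 and 6 mice of the lower and higher neutron dose, and 5 and 6 of the x-ray doses in that order. At day 3 there were 5 controls, 6 mice of the lower neutron dose and 5 of the lower x-ray dose. All samples went through globin RNA reduction, so the most abundant red cell transcripts were depleted in every group.

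Red cell precursors take up iron as transferrin bound to the transferrin receptor, reduce it in the endosome, move it to the cytoplasm and then into mitochondria, where it is built into haem. Ferritin stores the excess. Macrophages that clear old red cells return iron to plasma through the exporter ferroportin. Circulating reticulocytes, the youngest red cells, still carry RNA of this uptake machinery, so blood RNA holds it beside that of white cells.

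Levels are log2 intensities with the median detected probe of each array set to 0, and changes are log2 fold changes, irradiated minus controls of the same day, with the standard error (SE). To be called, a gene needed an unadjusted p under 0.001 in limma and a Benjamini-Hochberg rate of false discoveries under 0.05 over all 16098 genes, and every adjusted p beside a log2 fold change comes from that fit. The same controls of a day serve all exposures of that day, and p-values measure the spread among these mice. Markers of B cells (8 of 9 detected), T cells (10 of 10) and platelets (8 of 8) were present as the label of blood implies, but 9 of 24 hepatocyte markers were detected too, with a mean log2 level from -2.65 in a control of day 7 to 8.40 after 4 Gy x-rays at day 1. In whole blood, fewer cells of a type and less RNA per cell cannot be told apart.

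Each level rests on a 60-base probe, and 4 genes had a second detected probe elsewhere on the transcript. Because the results of Slc11a2 and Tfrc depend on which of the 2 was read, the first 30 bases of those probes are shown, 5′ to 3′ and all in lower case. The files place the Slc11a2 probes at bases 253 and 2961 of the transcript (mm9 chr15:100240516-100240575 and chr15:100218333-100218392, minus strand) and the Tfrc probes at bases 1228 and 4288 (mm9 chr16:32620470-32620529 and chr16:32632255-32632314, plus strand).
Slc11a2, base 253: gagactctgaggagcccttcaccacctact
Slc11a2, base 2961: tgctttaatcccaaccagaaataatcatcc
Tfrc, base 1228: tcctgctagatggaacatagattcttcatg
Tfrc, base 4288: tgagcaagatcacattaacaaagactagtt
The probes nearer the 5′ end were brighter and stand for Slc11a2 and Tfrc below unless the other is named. Exon and coding boundaries were not analysed here.

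At day 7 after 1 Gy neutrons, 6 of the 8 tested genes were called and all 6 were higher (Tfrc, Slc25a37, Slc11a2, Fth1, Abcb10 and Steap3), beside 36.2% of all genes called in either direction and 18.4% called higher. The number rests on the processing, with 1 of the 6 called, Tfrc (1.55), with normexp background correction. With scan date as a block the comparison rests on 1 irradiated mouse, as given below. The median log2 fold change of the 8 genes was 1.68, against -0.05 for all genes tested. On the scale of the spike-in controls, which shifted the median of all genes in this comparison by -2.03, none of the 8 was called, Tfrc, Slc25a37 and Slc11a2 stayed above controls (0.90, 0.90 and 0.32), and Steap3, Fth1 and Abcb10 lay below them (-1.16, -0.02 and -0.69). All rises at that dose and day are therefore relative to the typical transcript of the same array. The arrays of these mice also had fewer spots well above background, 40.2 to 50.3% against 54.3 to 63.9% in controls, and the part of this in the results was not tested.

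Fewer of the genes were called at the other exposures. At day 7 the lower neutron dose gave 1 call (0.547% of all genes called, 0.503% higher), 1 Gy x-rays gave 2 (3.74%, 2.64% higher) and 4 Gy x-rays gave 2 (15.8%, 7.72% higher), all of them higher. On the spike-in scale the lower neutron dose also gave 1 call, but of Abcb10, which lay below controls (-1.21, adjusted p = 0.00264), and Slc25a37 was not called. At day 1 there were 2 calls for 1 Gy neutrons (16.3% of all genes called, 5.62% higher and 10.7% lower), 1 for 1 Gy x-rays (6.45%, 3.8% lower) and 2 for 4 Gy x-rays (29.4%, 12.8% higher and 16.6% lower). In each of these Slc25a37 was the gene that fell, and where there were 2 calls the other was a rise of Slc40a1. None was called in limma after 0.25 Gy neutrons at day 1 (0.00621%), after 0.25 Gy neutrons at day 3 (1.53%) or after 1 Gy x-rays at day 3 (1.56%), where 0, 1 and 1 of the 8 had an unadjusted p below 0.05, and the methods' random variance test called none there either. Between the controls of days 7 and 1, 0 were called (4.39%), with 3 at an unadjusted p below 0.05.

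**Figure D1:**
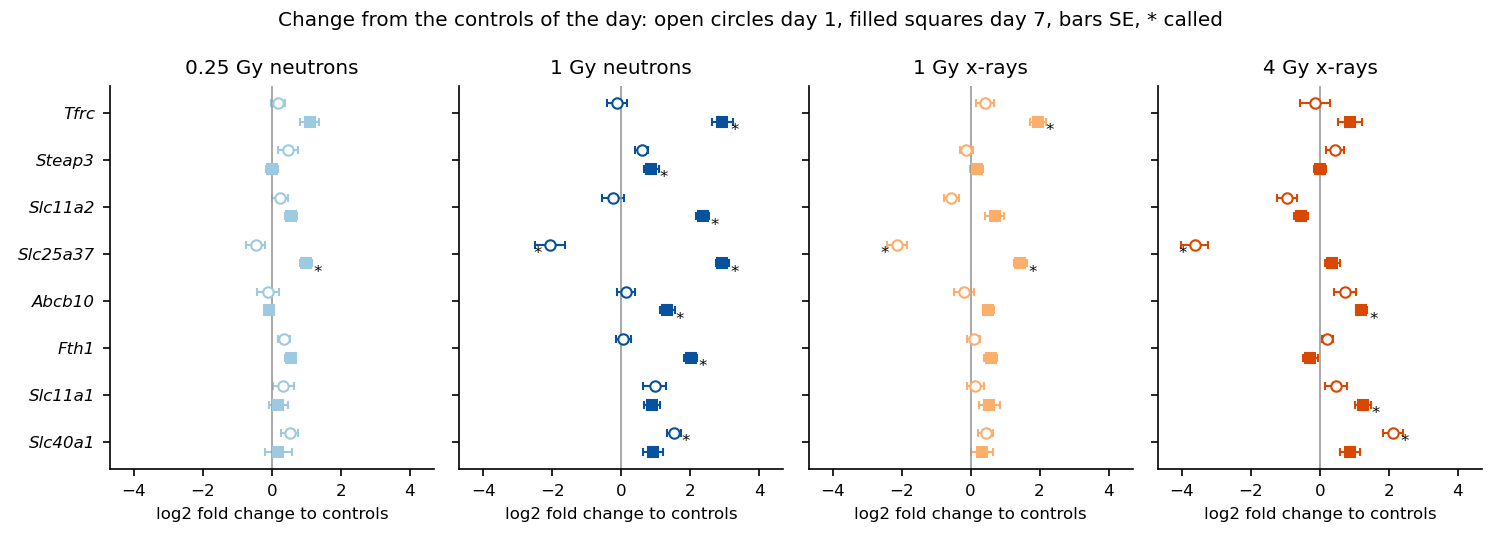
Log2 fold change from the controls of the day, a panel for each exposure, with open circles for day 1, filled squares for day 7, bars for the SE and an asterisk for called genes. Slc25a37 lies left of 0 at day 1 and right of 0 at day 7 after 1 Gy neutrons and both x-ray doses, and 6 genes are called higher at day 7 after 1 Gy neutrons, of which Steap3, Fth1 and Abcb10 fall below controls on the spike-in scale.

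Slc25a37, or mitoferrin 1, carries iron across the inner mitochondrial membrane of red cell precursors. It was called in 6 of the 7 comparisons with controls in which any of the 8 genes was called, all but 4 Gy x-rays at day 7. At day 1 its level in the 5 controls was 8.74, 8.60, 8.32, 8.98 and 9.08. In the 1 Gy neutron mice it ran from 5.25 to 8.002 with a median of 6.51, and after 1 Gy x-rays from 5.95 to 7.58 with a median of 6.45. The 5 mice given 4 Gy x-rays had 5.66, 4.58, 3.87, 6.31 and 5.17. Every irradiated mouse of these 3 groups lay below every control. Of all genes, 19.5%, 8.9% and 38.6% did not overlap between the same groups, in either direction.

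The log2 fold change of Slc25a37 at day 1 was -2.06 (SE 0.43, adjusted p = 0.00392) after 1 Gy neutrons, -2.13 (SE 0.29, adjusted p = 0.00168) after 1 Gy x-rays and -3.63 (SE 0.39, adjusted p = 4.6e-05) after 4 Gy x-rays, the last a level 12.35-fold lower. At equal dose, neutrons and x-rays differed by 0.07 (SE 0.45, adjusted p = 0.93). The call after 1 Gy neutrons was lost without any 1 of control mice 1, 2, 4 and 5 or irradiated mice 1, 3 and 6, with log2 fold changes of -2.33 to -1.78 over all 11 ways of leaving out a mouse, and among mice of the shared scan date the value was -1.70 (SE 0.40, adjusted p = 0.0146).

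By day 7 the order had turned. The controls ran from 8.32 to 9.24 with a median of 8.92. The 0.25 Gy neutron mice had 9.53, 9.90, 10.001, 9.74 and 10.07, and the 1 Gy x-ray mice 10.57, 10.37, 10.17, 10.41 and 9.99. In the 1 Gy neutron mice the levels were 11.25 to 12.11 with a median of 11.91, and after 4 Gy x-rays 8.60 to 9.67 with a median of 9.33. Mice of the first 3 exposures all lay above the highest control, in comparisons without overlap for 4.98%, 34.8% and 7.44% of all genes after 0.25 Gy neutrons, 1 Gy neutrons and the lower x-ray dose. Those given 4 Gy x-rays overlapped with controls.

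The log2 fold change at day 7 was 0.99 (SE 0.18, adjusted p = 0.046) after 0.25 Gy neutrons, 2.94 (SE 0.20, adjusted p = 4.0e-07) after 1 Gy neutrons, 1.44 (SE 0.18, adjusted p = 0.002) after 1 Gy x-rays and 0.36 (SE 0.21, adjusted p = 0.203) after 4 Gy x-rays. On the spike-in scale, where the median of all genes shifted by -0.94, the value after 1 Gy x-rays was 0.50 and not called. The value after 0.25 Gy neutrons sat at the threshold, was lost without any 1 of controls 3 to 6 or irradiated mice 2 to 5 (0.88 to 1.07 over all 11 ways of leaving out a mouse), and was -0.15 on the spike-in scale, where the median of all genes shifted by -1.14. The second Slc25a37 probe, at base 304 of the transcript, gave the same calls in all 6 of these comparisons at day 1 and day 7 in which the brighter probe was called, and 1.17 (adjusted p = 0.00972, not called) at day 7 of 4 Gy x-rays. Tested as the effect at day 7 minus that at day 1, Slc25a37 was called at every exposure, by 1.46 and 5.00 for the lower and higher neutron dose and by 3.57 and 3.98 for the x-ray doses, and on the spike-in scale it stayed positive in all 4 (0.29, 2.46, 2.48 and 3.91). In those 4 tests 1, 4, 2 and 1 of the 8 genes were called, all higher, beside 0.752%, 24.1%, 7.19% and 19.8% of all genes called and 0.714%, 16.1%, 5.05% and 11.3% higher. On the spike-in scale 4 were called for 1 Gy neutrons too, Slc25a37 higher and Steap3, Slc11a1 and Slc40a1 lower (-2.25, -2.62 and -3.14), while none was called for the lower neutron dose and Slc25a37 alone for each x-ray dose. The call at 0.25 Gy neutrons was lost in 13 of the 22 fits that left out a mouse.

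**Figure D2:**
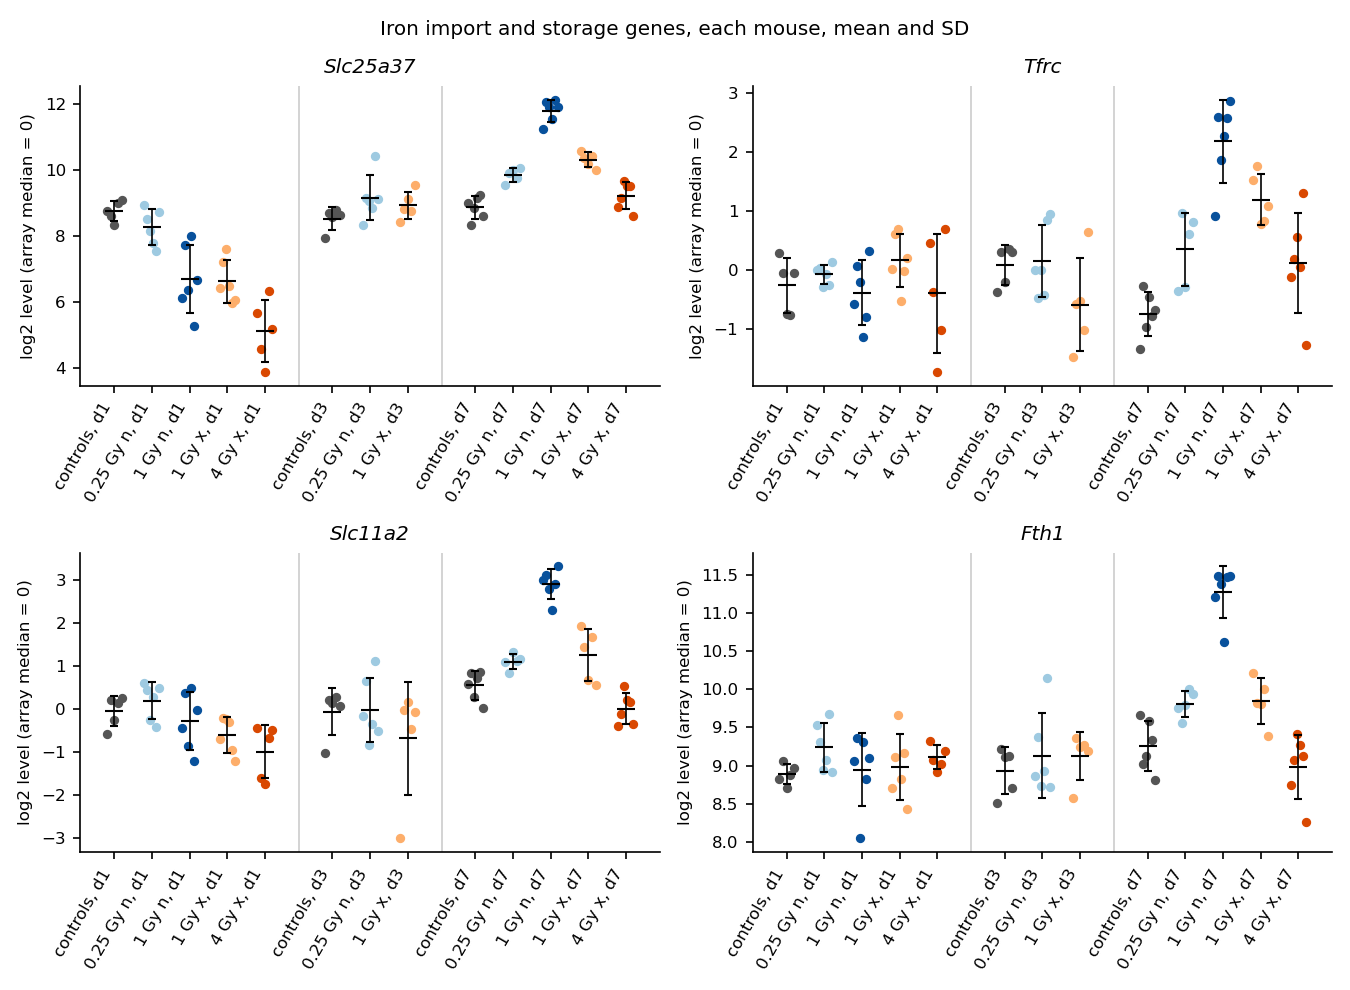
Log2 level of Slc25a37, Tfrc, Slc11a2 and Fth1 in each mouse (points) with the group mean and SD (bars), by exposure (n, neutrons; x, x-rays) within days 1, 3 and 7. After 1 Gy neutrons at day 7 all 6 mice sit above the 6 controls for each of the 4 genes, as was so for 16.7% of all genes. At day 7 of 4 Gy x-rays each of the 4 overlaps with controls. On the spike-in scale the mean of Fth1 after 1 Gy neutrons at day 7 is 0.02 below controls.

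Tfrc, the transferrin receptor, is the entry point of iron for red cell precursors and dividing cells. Its level in controls of day 7 ran from -1.34 to -0.27 with a median of -0.73. In the 1 Gy neutron mice it was 0.91 to 2.87 with a median of 2.43, and after 1 Gy x-rays the mice had 1.53, 1.76, 0.77, 0.83 and 1.08. Neither group overlapped with controls, in comparisons where 34.8% and 7.44% of all genes did not overlap. Tfrc rose by 2.94 (SE 0.30, adjusted p = 5.3e-06) after 1 Gy neutrons and by 1.95 (SE 0.23, adjusted p = 0.0018) after 1 Gy x-rays, or by 0.90 and 1.01 on the spike-in scale, where neither was called. After 0.25 Gy neutrons the difference was 1.10 (SE 0.28, adjusted p = 0.0717), or -0.04 on the spike-in scale, and after 4 Gy x-rays 0.87 (SE 0.35, adjusted p = 0.0664).

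At day 1 no Tfrc difference was called with the brighter probe, and the values were -0.12 (SE 0.29) after 1 Gy neutrons, 0.43 (SE 0.26) after 1 Gy x-rays and -0.13 (SE 0.43) after 4 Gy x-rays. The probe at base 4288, which lies on 10 spots of each array, gave another picture. It read -2.09 to -1.51 with a median of -1.78 in the controls and -2.53, -3.70, -3.64, -3.39 and -3.51 after 4 Gy x-rays, with no overlap, where 38.6% of all genes did not overlap. By this probe Tfrc fell by 1.54 (SE 0.23, adjusted p = 0.000316) after 4 Gy x-rays and by 0.80 (SE 0.18, adjusted p = 0.0139) at day 1 of 1 Gy x-rays, the latter against a positive value at base 1228. At day 7 the probe at base 4288 was called higher in mice given 1 Gy neutrons (3.23) and in those given x-rays (1.57 at 1 Gy and 1.43 at 4 Gy), and at day 3 after 0.25 Gy neutrons (0.71). The distance between both Tfrc probes within a mouse differed by 1.22 between 1 Gy x-rays and controls at day 1 (exact permutation test, 2-sided, p = 0.0195, adjusted p = 0.111 over 40 tests).

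Steap3, the endosomal ferrireductase that prepares iron for transport, was among the genes with smaller values. At day 7 its level was -0.72 to 0.38 with a median of 0.06 in controls and 0.47 to 1.33 with a median of 0.84 after 1 Gy neutrons. The groups did not overlap, in a comparison where 34.8% of all genes did not. The log2 fold change was 0.88 (SE 0.21, adjusted p = 0.00257), or -1.16 on the spike-in scale. The call was lost without any 1 of controls 1, 2, 3, 4 and 6 or of irradiated mice 1, 2, 3 and 6 (0.74 to 0.96 over all 12 ways of leaving out a mouse). The second Steap3 probe, at base 1792, gave 0.85 (SE 0.23, adjusted p = 0.0069, not called) there. That probe was called higher after 4 Gy x-rays at day 1 (1.86, adjusted p = 0.000603) and day 7 (0.97, adjusted p = 0.00454), where the brighter probe gave 0.44 and 0.01.

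Slc11a2, or DMT1, moves reduced iron out of the endosome. Its level at day 7 was 0.04 to 0.87 with a median of 0.66 in controls and 2.32 to 3.33 with a median of 2.97 after 1 Gy neutrons, without overlap, where 34.8% of all genes did not overlap. The mice given 0.25 Gy neutrons had 1.09, 0.83, 1.33, 1.11 and 1.18, those given 1 Gy x-rays 1.95, 1.44, 0.67, 1.67 and 0.57, and those given 4 Gy x-rays -0.40 to 0.54 with a median of 0.03. Slc11a2 was called only in the 1 Gy neutron mice, where it rose by 2.36 (SE 0.20, adjusted p = 1.2e-06), or 5.13-fold, and by 0.32 on the spike-in scale. After 4 Gy x-rays the value was -0.55 (SE 0.20, adjusted p = 0.0451), which misses the limit on the unadjusted p.

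The 3′-side probe of Slc11a2 did not move with the 5′-side probe. At base 2961 the level was -1.06 to -0.35 in controls of day 7 and -1.15 to -0.55 after 1 Gy neutrons, a difference of -0.25 (SE 0.15, adjusted p = 0.171). The distance between the probes within a mouse was 0.63 to 1.91 in controls and 2.97 to 4.16 after 1 Gy neutrons, and these ranges did not overlap. It widened by 2.61 on average, with p = 0.00217 in a 2-sided exact permutation test, the smallest it can give, and 0.0794 after adjustment over the 40 probe pairs compared. Which transcripts of the gene each probe can bind was not analysed here.

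**Figure D3:**
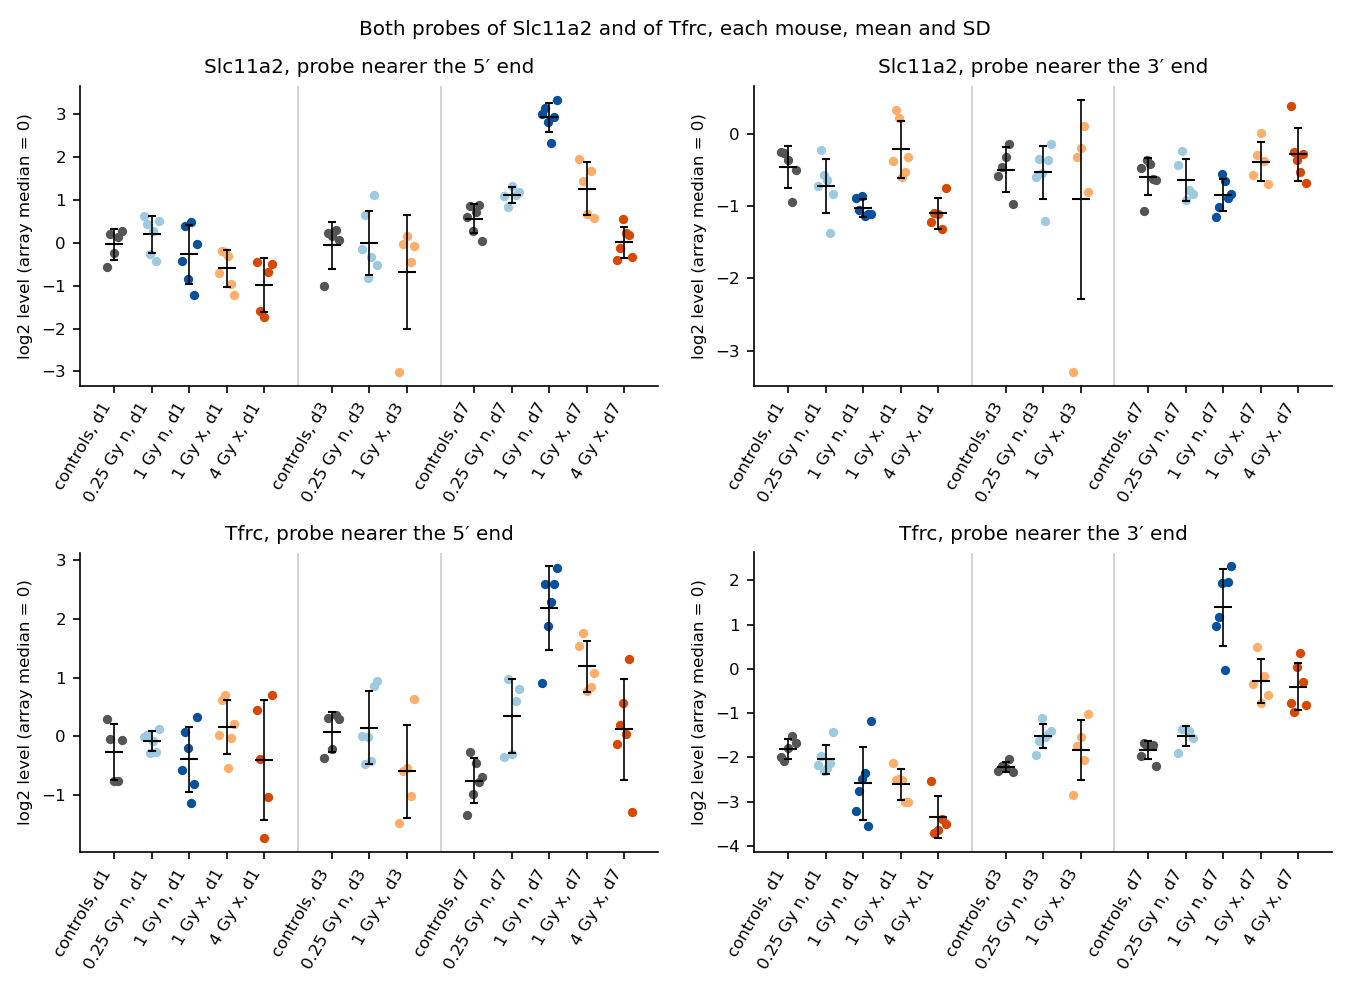
Log2 level at both probes of Slc11a2 (top) and of Tfrc (bottom) in each mouse, with mean and SD, by exposure and day. At day 7 after 1 Gy neutrons the Slc11a2 probe nearer the 5′ end is 2.36 above controls and the one nearer the 3′ end 0.25 below them, while both Tfrc probes are higher (2.94 and 3.23).

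Fth1, the heavy chain of ferritin, is the storage gene of the set and, with Slc25a37, gave the highest intensities. At day 7 its level was 8.81 to 9.66 with a median of 9.23 in controls and 10.62 to 11.49 with a median of 11.43 after 1 Gy neutrons, with no overlap, where 34.8% of all genes did not overlap. The log2 fold change was 2.02 (SE 0.19, adjusted p = 3.0e-06), a 4.05-fold rise relative to the typical transcript, and -0.02 on the spike-in scale. Mice given 0.25 Gy neutrons had 9.75, 9.55, 9.79, 9.999 and 9.94 (difference 0.55, adjusted p = 0.0969, -0.59 on the spike-in scale), and those given 1 Gy x-rays 10.21, 9.82, 9.80, 10.004 and 9.39 (difference 0.59, adjusted p = 0.0809, -0.35 on the spike-in scale). After 4 Gy x-rays the difference was -0.28 (SE 0.21, adjusted p = 0.322). At day 1 no exposure gave a called change, and the values lay between 0.06 and 0.35.

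Abcb10, a mitochondrial transporter of the inner membrane known to work beside mitoferrin 1 in haem synthesis, was called at day 7 in the 1 Gy neutron and 4 Gy x-ray mice. Controls ran from -0.31 to 0.26 with a median of -0.22, the 1 Gy neutron mice from 0.61 to 1.79 with a median of 1.14, and the 4 Gy x-ray mice from 0.67 to 1.47 with a median of 1.11. Both irradiated groups lay wholly above the controls, where 34.8% and 16.3% of all genes did not overlap. The log2 fold changes were 1.34 (SE 0.23, adjusted p = 0.000284), or -0.69 on the spike-in scale, and 1.20 (SE 0.16, adjusted p = 0.000158), or 1.41 on the spike-in scale. They differed from each other by 0.14 (SE 0.24, adjusted p = 0.633), whereas Slc25a37 differed between the same groups by 2.58. This contrast of the genes rests on the centring. On the spike-in scale Abcb10 differed between these groups by -2.11 (called) and Slc25a37 by 0.33 (not called).

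Scan date bears on these values, since only 1 of the 6 mice given 1 Gy neutrons at day 7 was scanned on the date of the controls. A fit with scan date as a block, like one limited to that date, sets that lone mouse against the controls, so only differences are given. They were 2.39 (Slc25a37), 2.45 (Slc11a2), 1.96 (Fth1), 1.66 (Tfrc), 1.34 (Steap3) and 0.76 (Abcb10), in the direction of the fit of all 6 mice. None of the x-ray groups shared a scan date with the controls of its day. At day 1 and for 1 Gy x-rays at day 7, where the x-ray mice were scanned on more than 1 date, scan date entered as a random block. Slc25a37 was then called at day 1 after 1 and 4 Gy (-2.05, adjusted p = 0.0299, and -3.66, adjusted p = 5.93e-06) and Slc40a1 after 4 Gy (2.13, adjusted p = 2.75e-05), and Tfrc (1.96) and Slc25a37 (1.44) at day 7 of the lower dose. With no date shared, a random block cannot take out a difference between dates, so these calls do not set scan date and irradiation apart. At day 7 all mice of the higher x-ray dose were scanned on 1 date and the controls on another, so no such block could be fitted. Scan date and irradiation thus cannot be told apart in any x-ray comparison with controls. At that dose and day this touches the calls of Abcb10 and Slc11a1.

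Slc40a1, or ferroportin, is the only known iron exporter of mammalian cells. It was higher at day 1. The 5 controls had 1.84, 2.09, 1.05, 2.10 and 1.22, the 1 Gy neutron mice 2.92 to 3.38 with a median of 3.19, and the 4 Gy x-ray mice 3.47, 3.70, 3.56, 4.67 and 3.48. Every mouse of both groups lay above every control, as was so for 6.39% and 17.2% of all genes in that order. The log2 fold change was 1.53 (SE 0.21, adjusted p = 0.000589) after 1 Gy neutrons and 2.12 (SE 0.29, adjusted p = 0.000193) after 4 Gy x-rays. The lower x-ray dose gave 0.44 (SE 0.23, adjusted p = 0.205), and the difference between neutrons and x-rays at 1 Gy was 1.09 (SE 0.15, adjusted p = 0.00114). By day 7 no Slc40a1 difference was called, with 0.93 (adjusted p = 0.0138) after 1 Gy neutrons, which was -1.10 on the spike-in scale, and 0.87 (adjusted p = 0.0284) after 4 Gy x-rays.

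Markers of tissue macrophages and of the liver were read beside Slc40a1. All 8 of the 8 Kupffer cell and tissue macrophage markers were detected, and their mean log2 level was -2.48 to -0.32 in controls of day 1, 0.17 to 4.69 after 1 Gy neutrons (5 of 8 called higher) and 1.00 to 4.10 after 4 Gy x-rays (8 of 8 called higher). At the same day the list also lay higher, with a median log2 fold change of 3.11 after 0.25 Gy neutrons and 2.70 in the 1 Gy x-ray mice (0 of 8 called in each), where Slc40a1 was not called (0.51 and 0.44). Over the 13 condition means its Pearson's r was 0.79 with this list, 0.85 with the hepatocyte list, 0.82 with the platelet list and -0.83 with the B cell list, a description of means that share arrays and scaling. Hepatocyte markers, 9 of 24 detected, were at -0.52 to 6.31 in the same controls and 7.41 to 8.40 after 4 Gy x-rays. With the macrophage level as a covariate Slc40a1 was not called after 1 Gy neutrons (1.34, adjusted p = 0.0723, beside 1.53 without it) or after 4 Gy x-rays (1.89, adjusted p = 0.333, beside 2.12). That level did not overlap between the controls and either group, so this fit cannot tell it apart from irradiation. Slc25a37 at day 1 was likewise not called with the macrophage level in these groups (-1.69 and -2.23), and after 1 Gy x-rays it was (-1.49, adjusted p = 0.00379). With the hepatocyte level Slc40a1 was called after 1 Gy neutrons and 4 Gy x-rays (1.504 and 2.14).

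Slc11a1, or NRAMP1, pumps metal ions out of the phagosomes of macrophages and neutrophils. At day 7 its level was 1.21 to 2.67 with a median of 1.57 in controls and 2.73 to 3.16 with a median of 2.94 after 4 Gy x-rays, without overlap, where 16.3% of all genes did not overlap. The log2 fold change was 1.25 (SE 0.22, adjusted p = 0.00117). In the 1 Gy neutron mice the levels were 2.27 to 3.01, which overlapped with controls, and the value of 0.89 (SE 0.24, adjusted p = 0.0058), -1.15 on the spike-in scale, was not called, although without control 6, the highest, it was (1.09). In the 4 Gy x-ray mice the macrophage markers stood at 0.89 to 2.69 against -1.42 to 1.56 in controls (4 of 8 called higher), and with that level as a covariate neither Slc11a1 (0.81, adjusted p = 0.274) nor Abcb10 (1.07, adjusted p = 0.0665) was called. There 4 of 10 neutrophil markers and 4 of 9 monocyte markers were called higher as well, with 1 of the latter lower, and in the 1 Gy neutron mice 5 of 10 neutrophil markers. Pearson's r over the 13 means was 0.78, 0.82 and 0.52 for Slc11a1 and 0.88, 0.54 and 0.43 for Abcb10 with the neutrophil, monocyte and tissue macrophage lists in that order. The part of neutrophil and monocyte RNA in these values was not tested.

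Ireb2 encodes IRP2, an RNA-binding protein that adjusts ferritin and transferrin receptor synthesis to the iron supply. Its probe was dim or flagged on 28.6% of the arrays of days 1 and 7, above the limit of 25%, so it was not tested. It was well above background on 50 of all 72 arrays, on 6 of 6 controls at day 7 and on 0 of 6 arrays after 1 Gy neutrons, so no fold change is given. Levels over all arrays were -6.40 to -2.23.

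Neutrons and x-rays at the same dose of 1 Gy were compared directly, though dose rate differs along with radiation type and cannot be told apart from it. At day 1, 2 of the 8 genes were called (9.62% of all genes called, 1.28% higher), Slc40a1 by 1.09 and Steap3 by 0.71, both higher after neutrons, and neither was called with scan date as a block or on the spike-in scale. At day 7, 3 were called (20%, 13.1% higher), all higher after neutrons, Slc11a2 by 1.66 (SE 0.27), Slc25a37 by 1.49 (SE 0.18) and Fth1 by 1.43 (SE 0.20). On the spike-in scale these 3 stayed positive (0.56, 0.40 and 0.33) and were not called. The second Slc11a2 probe read lower after neutrons, with group means of -0.85 against -0.38 after 1 Gy x-rays. The second Slc25a37 probe read higher after neutrons (4.99 against 3.91). Second probes were not tested in this contrast. Tfrc differed by 0.99 (SE 0.33, adjusted p = 0.0273), or -0.11 on the spike-in scale, and was not called. Against 4 Gy x-rays, 0 were called in limma at day 1 (0.0311%), and 2 had an unadjusted p below 0.05.

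The contrast between 1 Gy neutrons and 4 Gy x-rays was larger at day 7, when 5 genes were called (37.3%, 22.7% higher), all higher after neutrons. These were Slc11a2 (2.90, SE 0.20), Slc25a37 (2.58, SE 0.21), Fth1 (2.29, SE 0.21), Tfrc (2.07, SE 0.40) and Steap3 (0.86, SE 0.17). Group means of the second probes, not tested here, were lower after neutrons for Slc11a2 (-0.85 against -0.28) and Steap3 (-1.68 against -1.57). They were higher for Slc25a37 (4.99 against 3.05) and Tfrc (1.39 against -0.40). On the spike-in scale, where the median of all genes shifted by -2.25, none of the 8 was higher by the call, Slc11a2, Slc25a37 and Fth1 kept a positive value (0.66, 0.33 and 0.05), Tfrc and Steap3 turned negative (-0.18 and -1.38), and Steap3, Slc11a1, Slc40a1 and Abcb10 were called lower. Slc11a1, Slc40a1 and Abcb10 differed by -0.36, 0.06 and 0.14 on the array-median scale, none of them called.

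Red cell precursor markers were read beside the uptake genes. Of 18 such markers, among them Slc4a1 and Klf1, 17 were detected, and their mean log2 level was 1.63 to 2.52 in controls of day 1 and -0.85 to 0.65 after 4 Gy x-rays (11 of 17 called lower, 1 higher). At day 7 it was 1.59 to 2.39 in controls, 3.58 to 4.73 after 1 Gy neutrons (15 of 17 called higher), 2.64 to 3.64 after 1 Gy x-rays and 2.59 to 3.68 after 4 Gy x-rays (8 of 17 called higher in each). Over the 13 condition means, Pearson's r with this list was 0.97 for Slc25a37, 0.80 for Slc11a2, 0.69 for Fth1, 0.66 for Tfrc and 0.66 for Steap3, as a description of means that share arrays and scaling. Markers and genes parted in places. At day 1 of 4 Gy x-rays, where the markers lay lower, Tfrc, Steap3 and Fth1 differed from controls by -0.13, 0.44 and 0.22 at the brighter probes. At day 7 of that dose, where the markers lay higher, Slc11a2, Fth1 and Steap3 differed by -0.55, -0.28 and 0.01, none of these values called. The second probes read otherwise, with Tfrc at -1.54 and Steap3 at 1.86 at day 1, both called. At day 7 they gave 0.97 for Steap3 (called) and 0.31 for Slc11a2 (not called).

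Each gene was then set against the red cell marker level of the same mouse, a difference that does not depend on how an array is centred. Where the markers rise, a typical gene falls relative to them, so the share without overlap is given over all genes outside the list that were read in every mouse compared, and p-values were adjusted over those genes. At day 7 of 4 Gy x-rays, Slc11a2 stood at -3.35 to -2.93 relative to the markers against -2.05 to -1.12 in controls, Fth1 at 5.67 to 6.20 against 6.79 to 7.33, and Slc25a37 at 5.93 to 6.28 against 6.35 to 7.16. None of these ranges overlapped, as was so for 45.9% of all genes (45.5% of all genes below controls), with a median difference of -1.09 over all genes. The 3 differences were -1.59, -1.32 and -0.69, each with p = 0.00217 in a 2-sided exact permutation test (the smallest it can give), or 0.00472 adjusted.

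After 1 Gy neutrons at day 7 Slc25a37 stood 0.79 higher relative to the markers (7.18 to 7.96 against 6.35 to 7.16, exact permutation p = 0.00217, adjusted p = 0.00309), where 0.807% of all genes lay wholly above controls and 69.3% wholly below, with a median difference of -2.20, while Slc11a2 differed by 0.21 (exact permutation p = 0.329) and Fth1 by -0.13 (exact permutation p = 0.344). Abcb10 stood lower by 0.80 without overlap, and Steap3 differed by -1.27 with overlap (exact permutation p = 0.00433, adjusted p = 0.0058). At day 1 Slc25a37 lay further down than the markers, by -1.02 for 1 Gy neutrons and by -0.86 and -1.68 for 1 and 4 Gy x-rays, with no overlap in any of the 3, where 0.326%, 0.163% and 0.602% of all genes lay wholly below controls. Other genes stood higher relative to the markers there than in controls without overlap, as did 20.7%, 38.8% and 72.3% of all genes. They were Slc40a1 (2.58), Slc11a1 (2.02), Steap3 (1.64), Fth1 (1.10) and Slc11a2 (0.81) for 1 Gy neutrons, Slc40a1 (1.71), Tfrc (1.70) and Fth1 (1.37) for 1 Gy x-rays, and Slc40a1 (4.06), Abcb10 (2.67), Slc11a1 (2.40), Steap3 (2.38), Fth1 (2.16) and Slc11a2 (0.996) for 4 Gy x-rays. At day 1 the median difference over all genes was 0.97 for 1 Gy neutrons and 1.27 and 1.86 for 1 and 4 Gy x-rays. Both Slc11a2 values given for that day are smaller than the medians of their exposures. At day 3 of 1 Gy x-rays, Tfrc (-1.60), Slc11a2 (-1.55), Steap3 (-1.15), Fth1 (-0.73) and Slc25a37 (-0.52) stood lower relative to the markers than in controls without overlap, as did 35% of all genes. The median difference over all genes there was -0.95, a larger fall than that of Fth1 or Slc25a37.

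**Figure D4:**
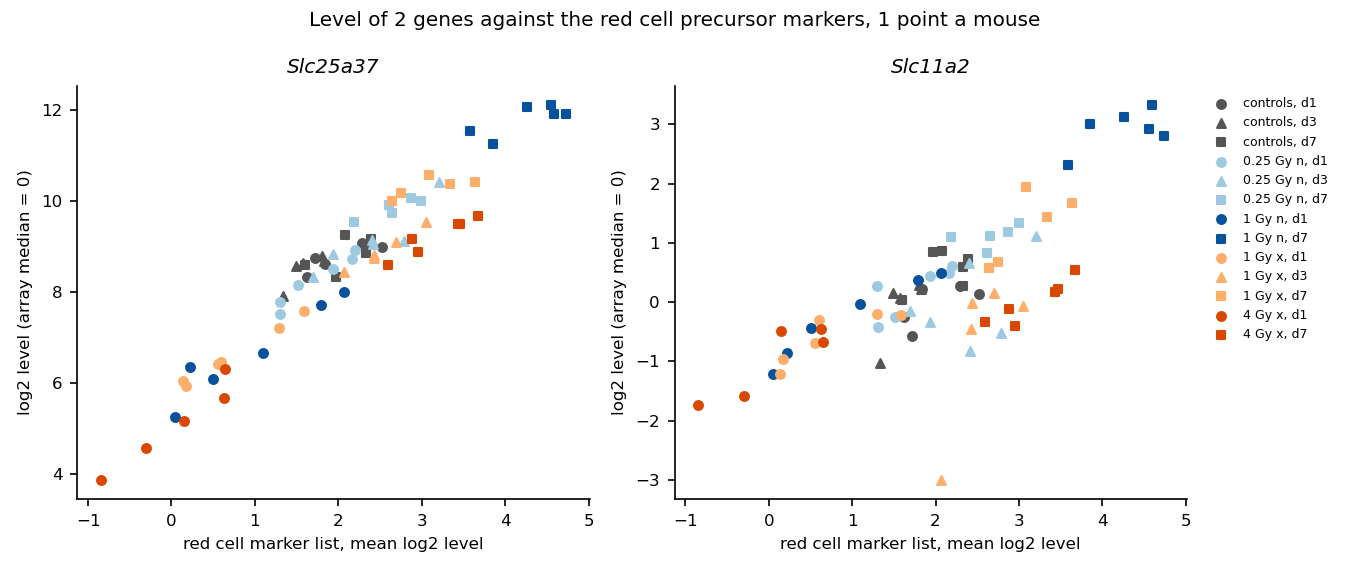
Log2 level of Slc25a37 (left) and Slc11a2 (right) against the mean log2 level of the 17 detected red cell precursor markers, 1 point for each mouse, coloured by exposure with a symbol for each day. The 4 Gy x-ray mice of day 7 reach marker levels of 2.59 to 3.68, as the 1 Gy x-ray mice of that day do, at lower levels of both genes.

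A wider list of 43 other iron and haem genes, 25 of them detected, was read beside the set. After 1 Gy neutrons at day 7, 11 of the 25 were called higher and 2 lower, beside 36.2% of all genes called in either direction. The largest rise was in Slc48a1, a haem transporter, by 2.54, and the largest fall in Twsg1, by -1.17. After 1 Gy x-rays 4 rose (2.64% of all genes), and after 4 Gy x-rays 6 rose (7.72%), led by Lcn2 (1.95). Lcn2 encodes a siderophore-binding protein and is also on the neutrophil marker list. At day 1, Ncoa4, the receptor that sends ferritin to autophagy, had the largest fall of the list at all 3 exposures, by -1.73 for 1 Gy neutrons and by -1.74 and -2.49 for 1 and 4 Gy x-rays. The numbers called higher and lower there were 2 and 2, 0 and 4, and 5 and 3 in that order, where 16.3%, 6.45% and 29.4% of all genes were called in either direction. The largest rises after 1 Gy neutrons and 4 Gy x-rays were in Lcn2 (2.79) and Tfr2 (5.23), or transferrin receptor 2. Tfr2 spread widely in controls of day 1, from -3.42 to 3.22, against 4.24 to 5.76 after 4 Gy x-rays. None of the 25 was called in limma after 0.25 Gy neutrons at days 1, 3 and 7 or after 1 Gy x-rays at day 3, where 0, 7, 7 and 5 had an unadjusted p below 0.05. After 1 Gy neutrons at day 7 the whole list is read, like the 9 genes, relative to the typical transcript.

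Over the means of the 13 conditions, the detected genes most like Slc25a37 were Cdc25b (r = 1.00) and Cd24a (r = 1.00), and those most like Slc11a2 were Tmem215 (r = 1.00) and Gm13547 (r = 0.99). Slc40a1 was most like Vnn3 (r = 0.99) and Ankrd40 (r = 0.98), Slc11a1 most like Lilr4b (r = 0.95) and Emilin2 (r = 0.93), and Abcb10 most like Mpst and Nfs1 (r = 0.96 for both). Steap3 was most like Gucy2d and Sdk2, Fth1 most like Pi4k2a beside an unnamed probe, and Tfrc most like Tpgs1. Within the set the highest likeness was between Slc11a2 and Fth1 (r = 0.92) and the lowest between Slc25a37 and Slc40a1 (r = -0.70).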

How the data were processed

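Globin-reduced RNA from 72 blood samples had been hybridised by the authors to 1-colour Agilent mouse arrays. The deposited files hold each spot's processed signal intensity, background-subtracted by Agilent Feature Extraction (version 12.0.2 in the submitters' processing notes) on a linear scale. The authors also deposited a table of log2 values, in which 12 of 72 columns followed their own array and 60 followed another, 21 of them an array of another group, so it served only as an alternative.

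Here log2 intensities were averaged over the spots of a probe without non-uniform or outlier spots. Probes dim or flagged on at least 25% of the 56 arrays of days 1 and 7 were dropped, and the median of every array was set to 0. A gene was read from its brightest probe. Groups were compared in limma 3.58.1 (R 4.3.3), with calls at p below 0.001 and a false discovery rate below 0.05. The fits were tested on simulated data. The number of arrays limits the precision.

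The 9 genes and all gene lists were chosen with earlier results of these data known. Every one of the 9 is named. Of the wider iron list, the called genes with the largest rise and the largest fall in each comparison with controls are named, and for each of the 9 the 2 detected genes of highest correlation over condition means. A gene that this rule names is not reported here. Other genes are named as list examples. Alternatives covered scaling, background correction, filters, probes, slide and scan date, liver and macrophage RNA, the test and each mouse left out. Same-numbered mice of different groups share only a number.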

Additional observations from a re-analysis of the deposited data

Results flagged for a closer look

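In 13 of 117 groups tested, 1 mouse stood apart from the rest in the level of a gene, where chance gives about 1 in 20 groups. In controls of day 3, mouse 1 was low for Slc25a37 (7.92) and Slc11a2 (-1.02), and mouse 3 for Ireb2 (-6.40). In mice given 1 Gy x-rays and bled at day 3, mouse 1 was low for Slc11a2 (-3.01) and Fth1 (8.58). At day 1 the mice apart were mouse 6 (Slc11a1, 2.85) and mouse 3 (Ireb2, -4.48) after 1 Gy x-rays, mouse 4 (Slc40a1, 4.67) after 4 Gy x-rays, and mouse 5 after 0.25 Gy neutrons for both Slc40a1 (2.97) and Abcb10 (1.44). At day 7 they were mouse 5 after 1 Gy x-rays (Slc11a1, 1.32), mouse 4 after 1 Gy neutrons (Fth1, 10.62) and control 3 (Abcb10, 0.26).

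The change from controls differed between day 7 and day 1, as tested in limma on the difference itself, for 8 pairs of gene and exposure. For Slc25a37 the differences were 1.46 and 5.00 for 0.25 and 1 Gy neutrons and 3.57 and 3.98 for 1 and 4 Gy x-rays. For Tfrc they were 3.06 for neutrons and 1.52 for x-rays, both at 1 Gy, or 0.53 and 0.42 on the spike-in scale, where neither was called. Slc11a2 and Fth1 differed by 2.59 and 1.96 after 1 Gy neutrons, and on the spike-in scale by 0.06 and -0.57.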

How the results depend on the processing

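Of the alternatives tried on single genes, 2137 kept their side of the threshold, 77 lost a call and 12 gained one. Another 6 changed sign with a call before or after the change. Sign changes of values never called are not among these 6. Examples at day 7 of 1 Gy neutrons are Slc40a1 (0.93 to -1.10) and Slc11a1 (0.89 to -1.15) with spike-in centring. With spike-in centring Slc25a37 turned to -0.15 at day 7 of 0.25 Gy neutrons, and Steap3, Fth1 and Abcb10 to -1.16, -0.017 and -0.69 at day 7 of 1 Gy neutrons. The second probe turned Tfrc to -0.80 (1 Gy x-rays, day 1) and Slc11a2 to -0.25 (1 Gy neutrons, day 7). Dim spots limit Ireb2. The cause of these and the following changes was not tested.

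The number of genes called kept within 1.5 times in 463 fits and moved in 91. With normexp background correction it was 0 of 1 for 0.25 Gy neutrons at day 7, 0 of 1 for 1 Gy x-rays at day 1, 1 of 2 for 1 Gy neutrons and for 4 Gy x-rays at day 1, 1 of 6 for 1 Gy neutrons and 1 of 2 for each x-ray dose at day 7, 0 of 1, 1 of 4 and 1 of 2 for the day difference of 0.25 Gy neutrons, 1 Gy neutrons and 1 Gy x-rays, 0 of 2 and 0 of 3 for neutrons against x-rays at 1 Gy on days 1 and 7, and 1 of 5 against 4 Gy x-rays at day 7. With spike-in centring it was 0 of 6 for 1 Gy neutrons and 0 of 2 for 1 Gy x-rays at day 7, 0 of 2 and 0 of 3 for neutrons against x-rays at 1 Gy on days 1 and 7, 0 of 1 for the day difference of 0.25 Gy neutrons and 1 of 2 for that of 1 Gy x-rays. With quantile normalization it was 0 of 1 for 0.25 Gy neutrons at day 7 and for its day difference, 1 of 2 for 1 Gy neutrons at day 1, 1 of 3 against 1 Gy x-rays and 3 of 5 against 4 Gy x-rays at day 7.

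With scan date as a block the count was 1 of 2 for 1 Gy neutrons at day 1. The fit within the shared date alone (chosen after seeing the data) makes the same contrast there and gave the same count. For 1 Gy neutrons at day 7, against controls or 4 Gy x-rays, the block rests on 1 neutron mouse, so no count is given. With this block the count was 0 of 2 for neutrons against x-rays at 1 Gy on day 1 and 1 of 2 for the day difference of 1 Gy x-rays. With slide as a block it was 0 of 1 for 0.25 Gy neutrons at day 7 and its day difference, and 1 of 2 for the day difference of 1 Gy x-rays. For 1 Gy neutrons against 4 Gy x-rays at day 1 it was 2 in place of 0. For neutrons against x-rays at 1 Gy on days 1 and 7, the slide block rests on 1 mouse of a group, so no count is given. A single fit of all 13 groups gave 0 of 1 for 0.25 Gy neutrons at day 7 and its day difference, 1 of 2 against 1 Gy x-rays and 1 in place of 0 against 4 Gy x-rays at day 1, and 1 of 2 for the day difference of 1 Gy x-rays.

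With the macrophage level as a covariate (chosen after seeing the data) the count was 0 of 2 at day 1 for both 1 Gy neutrons and 4 Gy x-rays, 0 of 2 for 4 Gy x-rays and 0 of 1 for 0.25 Gy neutrons at day 7, and with the hepatocyte level 1 of 2 for 1 Gy neutrons at day 1 and 0 of 1 for 0.25 Gy neutrons at day 7 and its day difference. Dim spots set to missing gave 0 of 1 for 0.25 Gy neutrons at day 7 and its day difference, the added variation filter 0 of 1 for the former and no detection filter 0 of 1 for the latter. The mean of detected probes gave 1 of 2 for neutrons against x-rays at 1 Gy on day 1 and 2 in place of 1 for the day difference of 4 Gy x-rays.

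Mouse numbers did not pair the samples, since correlations of same-numbered mice ran from -0.53 to 0.64 and in 0 of 10 comparisons were all above 0.1. With the replicate block the count was 0 of 1 for 0.25 Gy neutrons at day 7 and its day difference, 1 of 2 for 1 Gy neutrons at day 1 and 1 of 2 against 1 Gy x-rays at day 1. Leaving out each mouse gave 1 to 2 genes for 1 Gy neutrons at day 1 and 5 to 6 at day 7, 0 to 1 for 0.25 Gy neutrons at day 7 and its day difference, 4 to 5 and 1 to 3 for the day differences of 1 Gy neutrons and 1 Gy x-rays, 3 to 4 for neutrons against x-rays at 1 Gy on day 7, and 0 to 1 between the controls, with 1 only without control 3 of day 7. For the day difference of 1 Gy x-rays it was 1 without control 1 of day 1 or x-ray mice 1 or 2 of day 7, and for that of 0.25 Gy neutrons it was 0 in 13 of 22 fits.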
